A study of Mus musculus with 18 samples.

Results

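The neuronal migration cytoskeleton was followed through 10 genes in brains of Brca1 conditional knockout mice: the microtubule-binding proteins Dcx, Dclk1, Mapt and Stmn2, the tubulins Tubb3, Tubb2b and Tuba1a, the dynein regulator Pafah1b1, and the secreted guide Reln with its intracellular adaptor Dab1. Every probe set annotated to exactly 1 of these 10 genes was taken, which gave 34 probe sets of the 45037 measured in all. The cortex A chip held 28 of them among 22626 probe sets, the cortex B chip 6 among 22511, and the array used for the samples titled rest held all 34. Another 2 probe sets were left out because each names a second gene (Tuba1a with Gm6682, and Tubb2b with Tubb2a-ps2).

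The series compared brains of Brca1 conditional knockout mice with wild-type brains at postnatal day 7 on Affymetrix arrays, with 3 arrays of each genotype in each of 3 tables. The knockout animals combined nestin CRE, a floxed Brca1 allele whose recombination sites flank exons 5 to 13, and a null allele that carries an inverted neo cassette at exon 11. The nestin promoter is active in neural progenitors, so neurons, astrocytes and oligodendrocytes descend from cells that expressed Cre, whereas microglia do not. Nothing in the labels says whether wild-type animals carried Cre, which strain was used or which tissue the word rest covers, and no sex is given. The design text speaks of 3 animals of each genotype, and no label ties an array to an animal or says that arrays come from separate animals, so the p-values measure the spread between these arrays, which may be partly technical.

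Newborn neurons reach their layer by moving a leading process forward and then pulling the nucleus after it along microtubules. Dcx and its relative Dclk1 bind and stabilise those microtubules in migrating neurons, and Pafah1b1 (Lis1) works with the dynein motor that moves the nucleus. Reln, secreted by Cajal-Retzius cells at the cortical surface and later by interneurons and cerebellar granule cells, acts through lipoprotein receptors on Dab1 in the migrating neuron. Dcx is shut down as neurons mature, while Mapt (tau) marks growing and mature axons.

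Dcx fell in knockout cortex on both of its bright probe sets, and on 1 of them in the rest samples as well. Mapt fell by a smaller amount in knockout cortex on 2 of 3 probe sets of the A chip. Sex-linked signals set some knockout arrays apart from all others, so these falls cannot be fully separated from that pattern. The Dcx call in the rest samples and the Mapt calls also depended on single arrays. No probe set of Dclk1, Tubb3, Tubb2b, Tuba1a, Stmn2, Pafah1b1, Reln or Dab1 passed the test in any table. The signals are linear probe set values, compared as log2(scaled signal + 16) within each table, and a probe set was called at a limma p under 0.05 after Benjamini-Hochberg adjustment over all probe sets tested in that table.

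On the cortex A chip, 26 of the 28 probe sets could be tested, and 4 were called (15.4%), all lower in knockout. For comparison, 3.02% of all 12065 probe sets tested were called in either direction and 0.713% were called lower. The genotypes did not overlap, with knockout lower, at 8 probe sets (30.8%), against 10.8% of all probe sets tested, and 1 probe set lay above. None of the 4 probe sets tested on the B chip was called by limma, and 0 of them had an unadjusted p under 0.05, in a table where 0.281% of probe sets were called. Among rest samples 1 of 30 was called (3.33%), lower in knockout, where 0.313% of all 21407 probe sets were called either way and 0.168% lower. Knockout lay wholly below wild type at 4 of the 30 (13.3%), against 9.13% of all probe sets tested there. The median log2 difference of the members was -0.08 on the A chip. It was 0.07 on the B chip and -0.09 for rest samples, against -0.01, 0.00 and 0.00 over all probe sets of those tables that were tested.

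**Figure D1:**
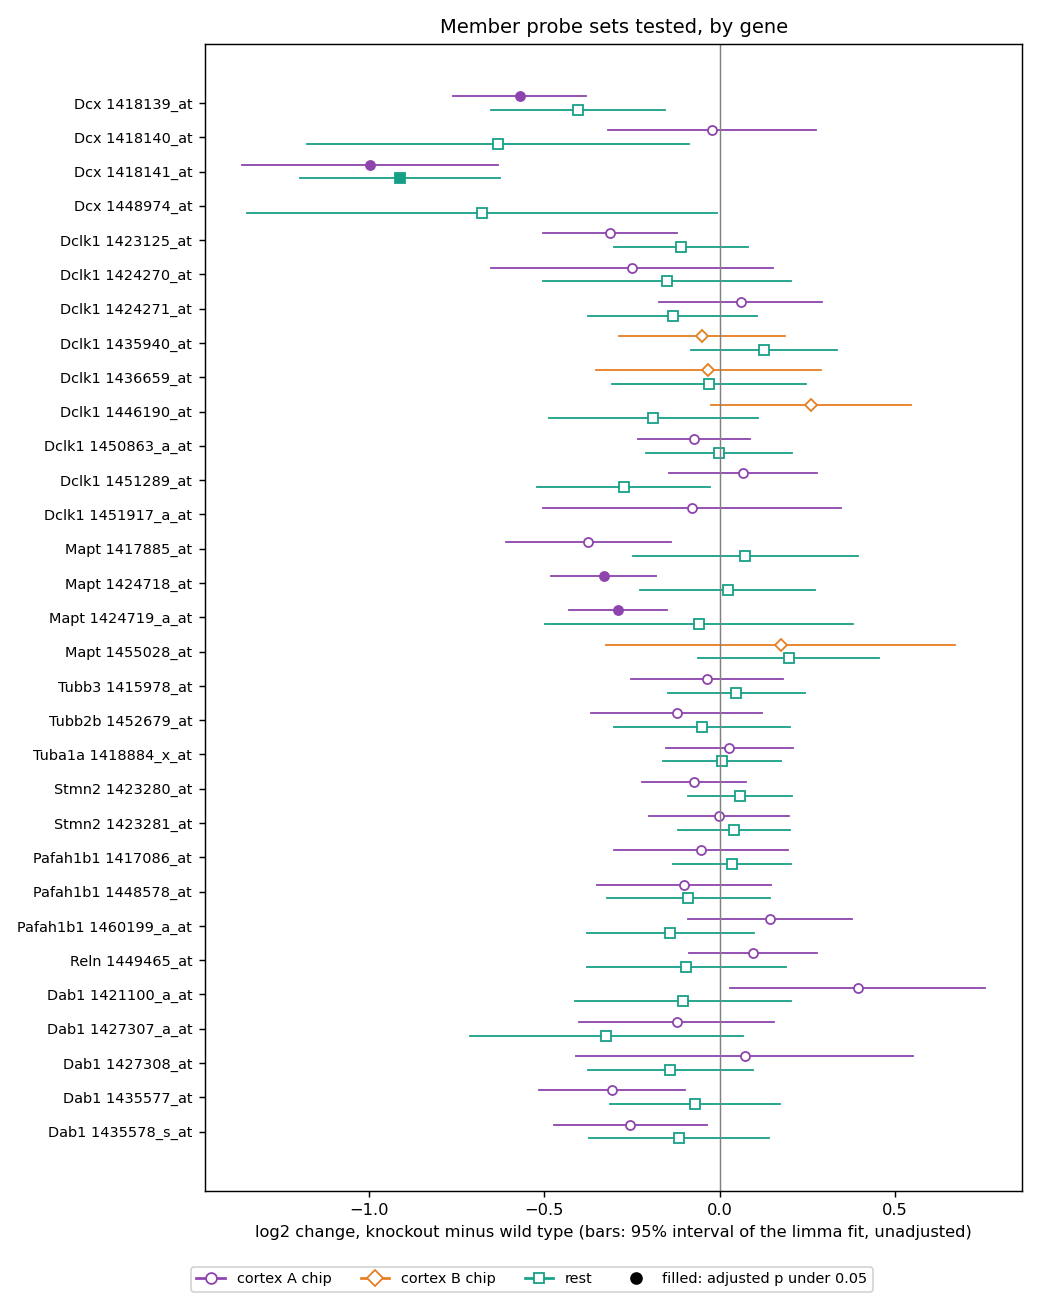
The log2 difference of each tested probe set (x axis, knockout minus wild type, 95% interval of the limma fit) is shown by gene, with circles for the cortex A chip, diamonds for the B chip and squares for the rest table. Filled symbols passed the adjusted threshold: 2 of Dcx and 2 of Mapt on the A chip and 1 of Dcx in the rest table, all left of 0.

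Dcx lies on the X chromosome, and sex-linked probe sets set some knockout arrays apart from all others. In the cortex A chip table Xist, the RNA of the inactive X chromosome, read 54.3, blank and 2186 in knockout replicates 1, 2 and 3, against 2848.1, 2662.4 and 2856.1 in wild type. Among rest samples it read 175, blank and 3606.2 in knockout, against 4673.1, 3503.7 and 4271.1 in wild type. Y-linked Eif2s3y was listed in knockout replicates 1 and 2 only, in all 3 tables. Genotype and sex pattern therefore differ together for 2 of the 3 knockout arrays, and a fit with a term for this pattern compares knockout replicate 3 alone with wild type, assuming that the lone array varies like the others.

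The other array measures spread most on the B chip. The share of probe sets with a listed signal was 54.0% to 58.0% per A chip, 33.6% to 42.6% per B chip and 49.2% to 51.6% per rest array, and scaling factors were 0.948 to 1.06. The 3' to 5' signal ratio of actin is a measure of RNA quality. It was 1.37 to 1.51 per A chip, 1.86 to 2.40 per B chip and 1.64 to 1.96 per rest array. Knockout replicate 3 was highest on the B chip and in the rest table, where it stood at 1.96 against 1.73 or less on the others. It is also the array that the sex-pattern term compares with wild type. Brca1 itself had 1 probe set that could be tested. It read 51.4, 44 and 61.4 in knockout cortex and 38, 36.9 and 48.9 in wild-type cortex (log2 difference 0.25, limma adjusted p = 0.496), and 118.5, 86 and 134.8 against 101.8, 111.8 and 114.3 in rest samples (0.03, adjusted p = 0.978). Whether it lies in the deleted exons was not established, so it checks nothing about the labels.

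The cortex label was read against fixed markers. All 9 excitatory cortical neuron genes on the A chip were measured well enough to be tested, and the cerebellar granule cell genes Atoh1, Barhl1 and Cbln3 were blank on all 6 cortex A arrays. The lists did not separate the regions fully. Of 10 cerebellar granule cell genes on the A chip, 4 were tested in cortex, among them Cbln1 (brightest probe set, means of 296 in knockout and 319 in wild type) and Zic1 (378 in knockout and 250 in wild type). Of 11 excitatory cortical neuron genes in the rest table, 9 were tested, and Emx1 was blank on all 6 rest arrays.

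Dcx, doublecortin, is the X-linked protein whose loss in humans disturbs cortical layering. It has 4 probe sets on the A chip and none on the B chip. Probe set 1418139_at, the brightest, read 874.5, 740.2 and 843.9 in knockout cortex, against 1134.4, 1290.2 and 1243.4 in wild-type cortex. All 3 knockout arrays lay below all 3 wild-type arrays, and the knockout array with Xist was inside the range of the other 2. The scaled mean was 819.5 ± 70.4 in knockout and 1223 ± 79.9 in wild type (SD, n = 3 each), 67.0% of the wild-type signal (log2 difference -0.57, SE 0.0858, limma adjusted p = 0.0044).

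Probe set 1418141_at showed the larger difference. It read 432.7, 361.1 and 636.1 in knockout cortex, against 986.0, 989.7 and 852.1 in wild-type cortex. The genotypes did not overlap, and the highest knockout array was replicate 3, the one with Xist. Its scaled mean was 477 ± 143 in knockout and 943 ± 78.4 in wild type (SD, n = 3 each), 50.6% of wild type (log2 difference -0.996, 95% interval -1.36 to -0.63, limma adjusted p = 0.00807).

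The other 2 Dcx probe sets were dim. Probe set 1418140_at read 60.9, 67.8 and 56.1 in knockout cortex and 63.0, 62.7 and 62.0 in wild-type cortex, with the wild-type values inside the knockout range (log2 difference -0.02, interval -0.32 to 0.28, limma adjusted p = 0.961). Probe set 1448974_at was blank on all 3 knockout arrays and read 75.6, 118.3 and 103.3 in wild-type cortex, so it had no fold change and was not tested.

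Probe set 1418141_at was also lower in knockout rest samples. It read 459.7, 372.5 and 529.6 in knockout, against 921.0, 773.6 and 888.8 in wild type. Again all knockout arrays were lower and replicate 3 was the highest of them. The scaled mean was 454 ± 78.7 in knockout and 861 ± 77.5 in wild type (SD, n = 3 each), 52.7% of wild type (log2 difference -0.91, 95% interval -1.20 to -0.63, limma adjusted p = 0.0233).

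This call in the rest table was lost without knockout replicate 1 (limma adjusted p = 0.0764), without knockout replicate 2 (0.0715), without wild-type replicate 1 (0.0981) and without wild-type replicate 3 (0.0583), with log2 differences of -1.02 to -0.78 over the 6 omissions. No omission of 1 array lost a Dcx call on the A chip.

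Probe set 1418139_at in the rest table read 931.5, 734.6 and 836.7 in knockout and 1183.2, 961.5 and 1178.9 in wild type. The genotypes did not overlap, with wild-type replicate 2 just above knockout replicate 1. It missed the threshold (log2 difference -0.40, SE 0.110, limma adjusted p = 0.229). The dim 1418140_at read 43.7, 47.1 and 70.9 in knockout and 93.4, 61.2 and 127.7 in wild type, overlapping through 1 array on each side (log2 difference -0.63, adjusted p = 0.398). Probe set 1448974_at was listed on 2 knockout arrays, at 98.6 and 88.8, and on 2 wild-type arrays, at 112.7 and 222.3 (log2 difference -0.68, adjusted p = 0.471).

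**Figure D2:**
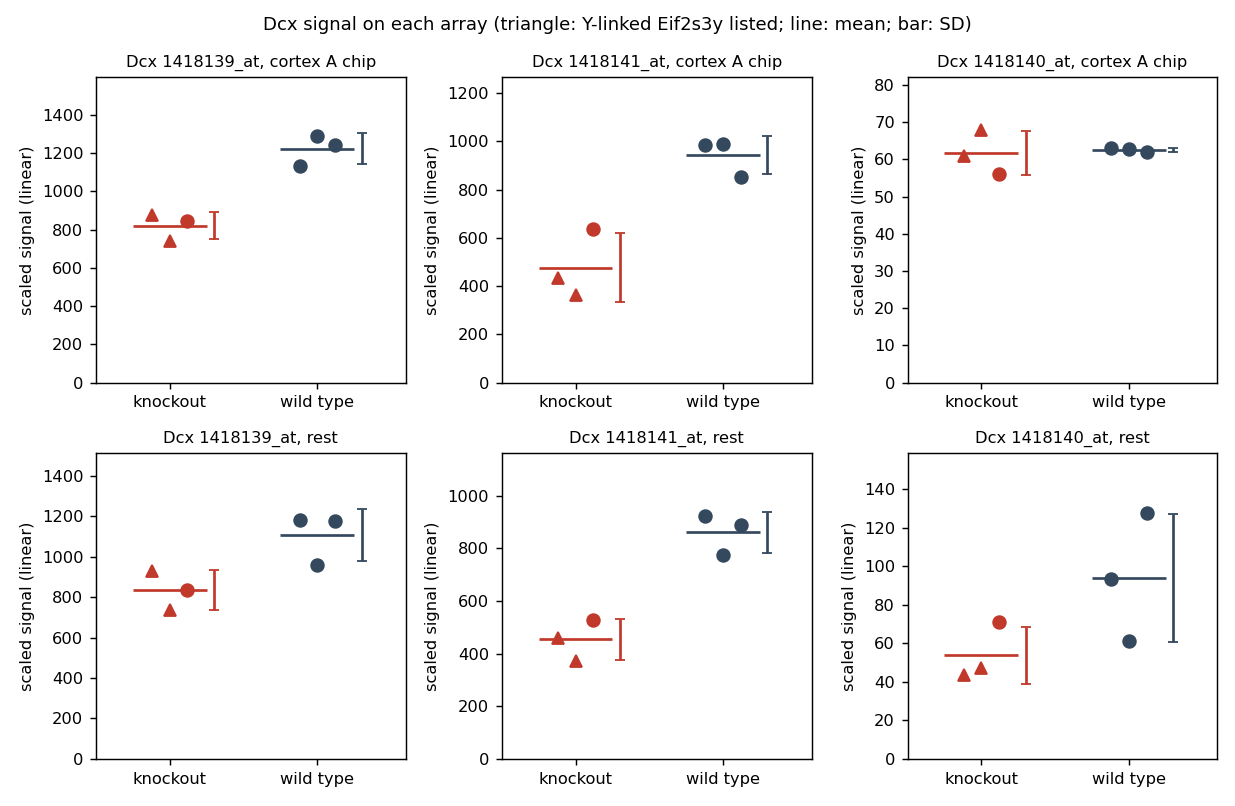
Scaled signal of 3 Dcx probe sets on each array (y axis, linear, from 0), with knockout left of wild type; points are arrays, the line is the mean and the bar the SD of 3. Triangles are arrays that list Y-linked Eif2s3y, which are knockout replicates 1 and 2; on 1418141_at the 3 knockout arrays lie below the 3 wild-type arrays in both tables.

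With the term for the sex pattern, which sets knockout replicate 3 against wild type, the cortex difference of 1418139_at was -0.52 on the log2 scale (limma adjusted p = 0.126) and that of 1418141_at was -0.55 (adjusted p = 0.148). For rest samples the corresponding values were -0.39 for 1418139_at (adjusted p = 0.669) and -0.68 for 1418141_at (adjusted p = 0.303). The direction was the same in these fits, but no member of the list was called in any of them, and for 1418141_at in cortex the difference moved from -0.996 to -0.55. Genotype and sex pattern cannot be told apart for the other 2 knockout arrays.

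The balance of the bright Dcx probe sets was also read within each array. The signal of 1418139_at over that of 1418141_at was 2.02, 2.05 and 1.33 on the knockout cortex arrays and 1.15, 1.30 and 1.46 on the wild-type cortex arrays, so replicate 3 of knockout lay within the wild-type range (log2 difference 0.44, exact two-sided permutation p = 0.2). The ratio on rest arrays was 2.03, 1.97 and 1.58 in knockout and 1.28, 1.24 and 1.33 in wild type. There the knockout arrays were all higher (0.53, exact two-sided permutation p = 0.1, the smallest that 3 arrays against 3 allow). The files do not say which Dcx transcripts each probe set reads.

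The upstream sequence of Dcx is shown beside that of Tubb3, a neuronal gene whose signal was not called in any table, so that the gene with the largest difference can be read next to another neuronal gene. Both windows are the 250 bases before the start site in RefSeq (GRCm38.p6), 5′ to 3′ on the gene's strand, and capitals mark the motifs TAATTA (a homeobox core), TATAAA and GGGCGG (a GC box) on either strand. The Dcx window lies at chrX:143933220-143933469 on the minus strand and the Tubb3 window at chr8:123411303-123411552 on the plus strand.
Dcx: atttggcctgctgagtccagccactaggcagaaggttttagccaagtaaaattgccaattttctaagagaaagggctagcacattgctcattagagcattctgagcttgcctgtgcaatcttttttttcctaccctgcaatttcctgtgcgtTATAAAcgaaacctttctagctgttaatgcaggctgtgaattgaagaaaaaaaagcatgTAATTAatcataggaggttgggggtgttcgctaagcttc
Tubb3: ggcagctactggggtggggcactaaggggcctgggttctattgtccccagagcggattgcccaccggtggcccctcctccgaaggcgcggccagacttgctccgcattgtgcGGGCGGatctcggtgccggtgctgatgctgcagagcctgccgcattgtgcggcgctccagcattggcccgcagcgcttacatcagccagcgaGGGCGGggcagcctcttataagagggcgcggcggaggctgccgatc
The Dcx window held 41.6% G and C, 1 TAATTA and 1 TATAAA and no GGGCGG, and the Tubb3 window held 68.0% G and C, 2 GGGCGG and neither of the other 2 motifs. Neither held the E-box CANNTG. A second Dcx window, before another start site in RefSeq, overlaps the first and is not shown (chrX:143933125-143933374). It held 44.8% G and C, 1 TAATTA, 1 TATAAA and no GGGCGG or CANNTG. Over all 32851 windows of the table, the median content was 52.4%, and 4.8% held TAATTA, 12.4% TATAAA, 32.7% GGGCGG and 66.2% CANNTG. Windows were given for 7 of the 10 genes. A match is a string of letters, and binding was not measured.

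Mapt, tau, is the main axonal microtubule-associated protein and lies on chromosome 11, as do Brca1 and Pafah1b1. Of its 3 probe sets on the A chip, 2 fell in knockout cortex. Probe set 1424718_at read 1759.8, 1806.7 and 1952.2 in knockout, against 2361.2, 2221.2 and 2365.3 in wild type. The genotypes did not overlap (scaled means 1840 ± 100.3 and 2316 ± 82.0, SD, n = 3 each, 79.4% of wild type, log2 difference -0.33, SE 0.0673, limma adjusted p = 0.0239).

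Probe set 1424719_a_at read 1884.0, 2039.7 and 1987.1 in knockout cortex, against 2453.7, 2431.3 and 2344.9 in wild-type cortex. Here too every knockout array was lower (scaled means 1970 ± 79.2 and 2410 ± 57.4, SD, n = 3 each, 81.8% of wild type, log2 difference -0.29, SE 0.0631, limma adjusted p = 0.0334). Probe set 1417885_at read 681.5, 556.2 and 666.9 in knockout and 865.4, 896.6 and 722.6 in wild type. It did not overlap either, but missed the threshold (log2 difference -0.37, interval -0.61 to -0.14, limma adjusted p = 0.0997).

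These Mapt calls depended on single arrays. Probe set 1424718_at missed the threshold without knockout replicate 1 (limma adjusted p = 0.072), knockout replicate 2 (0.101), wild-type replicate 1 (0.106) or wild-type replicate 3 (0.0659). Probe set 1424719_a_at missed it whichever of the 6 arrays was left out (0.0537 to 0.137), and 1417885_at passed it without wild-type replicate 3 (0.0441). The log2 differences stayed between -0.47 and -0.26 in all of these fits. With the term for the sex pattern they were -0.24 for 1424718_at, -0.28 for 1424719_a_at and -0.30 for 1417885_at.

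On the B chip the Mapt probe set 1455028_at spread widely within each genotype, at 3529.2, 5602.5 and 4573.7 in knockout and 3442, 6271.6 and 2912.3 in wild type (log2 difference 0.17, interval -0.32 to 0.67, limma adjusted p = 0.947). For rest samples all 4 Mapt probe sets overlapped between genotypes. Probe set 1424718_at read 3142.6, 2888.5 and 2381.3 in knockout and 2458.5, 3081.7 and 2721 in wild type (log2 difference 0.02, interval -0.23 to 0.27). Probe set 1424719_a_at read 2198.2, 2455.2 and 1374.8 in knockout and 2106, 2354.8 and 1693 in wild type (-0.06, interval -0.50 to 0.38). Knockout replicate 3, the array with the highest actin ratio of its table, had the lowest knockout value of each of the 4 Mapt probe sets, and the part of RNA quality in this was not tested. Adjusted p-values of limma for these 4 lay between 0.605 and 0.967.

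**Figure D3:**
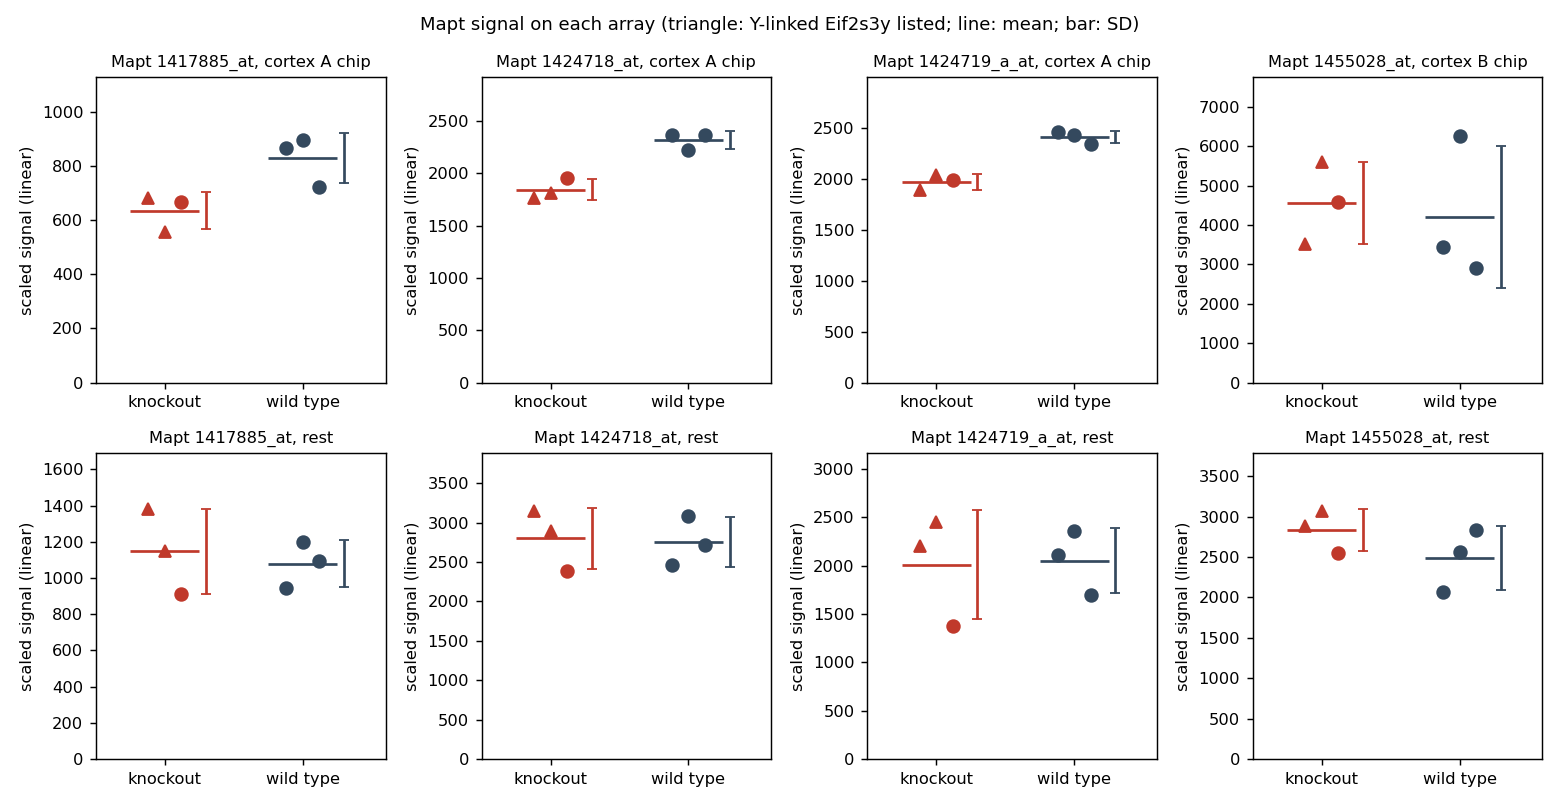
Scaled signal of the 4 Mapt probe sets on each array (y axis, linear, from 0), with knockout left of wild type, the mean as a line and the SD of 3 as a bar. The 3 probe sets of the cortex A chip separate the genotypes, and those of the B chip and of the rest table overlap.

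Whether the knockout effect differed between the rest samples and cortex was examined through an interaction term, fitted with limma over both tables on 11959 probe sets, of which 0.0502% were called. None of the 25 members in the fit was called, although 4 had an unadjusted p below 0.05, a pair of Mapt probe sets and 1 each of Dclk1 and Dab1. The smallest adjusted p was 0.380. For Mapt the difference of the log2 effects, rest minus cortex, was 0.35 for 1424718_at (interval 0.06 to 0.65, adjusted p = 0.380), 0.45 for 1417885_at (0.03 to 0.87, adjusted p = 0.445) and 0.23 for 1424719_a_at (-0.27 to 0.73, adjusted p = 0.776). For Dcx it was 0.09 for 1418141_at (-0.42 to 0.59, adjusted p = 0.936) and 0.17 for 1418139_at (-0.15 to 0.48, adjusted p = 0.736). This fit took the 12 arrays as independent, although same-numbered arrays of both tables may share an animal, which no label states. With genotype and replicate number as a block, 0 members were called (smallest limma adjusted p = 0.346). The data therefore do not show that the fall of Mapt or of Dcx differed between the 2 sets of samples, and for Dcx 1418141_at a difference as large as 0.59 lies within the interval.

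Dclk1, the doublecortin-like kinase, has 9 probe sets, 6 of them on the A chip and the others on the B chip. None was called. On the A chip the log2 differences ran from -0.31 to 0.07 (limma adjusted p = 0.0914 to 0.887). Only 1423125_at separated the genotypes, at 516.8, 543.7 and 511.7 in knockout cortex against 617.3, 720.6 and 630.0 in wild-type cortex (log2 difference -0.31, interval -0.50 to -0.12). The brightest A chip probe set, 1450863_a_at, read 1231, 1245.5 and 1315 in knockout and 1366.7, 1385.4 and 1241.8 in wild type, overlapping at wild-type replicate 3 (-0.07, interval -0.23 to 0.09).

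On the B chip 1435940_at, the brightest there, read 4163.7, 4042.9 and 3978.9 in knockout cortex and 4412.6, 4283.4 and 3935 in wild-type cortex, and the B chip differences of Dclk1 ran from -0.05 to 0.26. Of the 9, 8 were tested in rest samples, with differences of -0.27 to 0.13. Probe set 1451289_at separated the genotypes there, at 311.3, 264.3 and 263.9 in knockout against 346.2, 360.3 and 316.2 in wild type (-0.27, limma adjusted p = 0.429), while on the A chip the same probe set overlapped with a difference of 0.07. Probe set 1435940_at in the rest table read 1626.6, 1353.8 and 1296.6 in knockout and 1248.5, 1375.7 and 1273.4 in wild type (0.13, adjusted p = 0.699). All intervals of Dclk1 lay between -0.65 and 0.54.

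Stmn2 (SCG10), a tubulin-binding protein of growing axons, was bright and was not called. In cortex 1423280_at read 4193.3, 3831.9 and 3832.9 in knockout and 3887.1, 4314.6 and 4278.1 in wild type. The arrays overlapped (log2 difference -0.07, interval -0.22 to 0.08, limma adjusted p = 0.668). On rest arrays it read 6899, 6790.1 and 6122.3 in knockout and 6567.4, 6458.8 and 5998 in wild type (0.06, interval -0.09 to 0.21). Its other probe set, 1423281_at, differed by -0.00 in cortex and 0.04 in the rest table.

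The tubulins, which form the microtubule itself, were not called either. Tubb3, the neuron-specific beta-tubulin, read 2224.6, 1780.4 and 2205.2 in knockout cortex and 2099.8, 2319.5 and 1938.4 in wild-type cortex (log2 difference -0.04, interval -0.25 to 0.18, limma adjusted p = 0.897). Rest samples read 2922.8, 2687.8 and 2346.2 in knockout and 2530.3, 2727.7 and 2416.7 in wild type (0.05, interval -0.15 to 0.24). Both sets of arrays overlapped.

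Tubb2b, a beta-tubulin of migrating neurons, read 1426.6, 1130 and 1478.7 in knockout cortex and 1543.4, 1288.7 and 1552 in wild-type cortex (log2 difference -0.12, interval -0.37 to 0.12, limma adjusted p = 0.657). The rest values were 1992, 1657.6 and 2098.1 in knockout and 1950, 2267.8 and 1741.3 in wild type (-0.05, interval -0.30 to 0.20). Tuba1a, the main alpha-tubulin of new neurons, read 5839.9, 5166.1 and 4941.1 in knockout cortex and 5277.5, 5614.6 and 4745.8 in wild-type cortex (0.03, interval -0.15 to 0.21, adjusted p = 0.908). Rest samples read 8660.3, 8608.8 and 7571 in knockout and 8796.1, 8327.1 and 7601.2 in wild type (0.01, interval -0.16 to 0.17). The Tuba1a probe set carries the suffix that Affymetrix gives where probes can match other transcripts, so close tubulin genes may share its signal.

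Pafah1b1, the Lis1 protein that tethers dynein, was tested through 3 probe sets in cortex and in the rest table. The brightest, 1448578_at, read 863.8, 772.8 and 1026.1 in knockout cortex and 1070.5, 902.2 and 879.5 in wild-type cortex (log2 difference -0.10, interval -0.35 to 0.14, limma adjusted p = 0.732). On rest arrays the values were 1482.6, 1320.8 and 1145.3 in knockout and 1256.2, 1454.2 and 1482.8 in wild type (-0.09, interval -0.32 to 0.14). All arrays overlapped at each of the 3, with differences of -0.10 to 0.14 in cortex and -0.14 to 0.04 in the rest table. Of the other 2 probe sets of Pafah1b1, 1427703_at was blank on every array. The remaining one, 1439656_at, was listed on 2 knockout arrays of the B chip (140.6 and 107.5) and on 1 wild-type array (102.6), and on 1 array of each genotype in the rest table (22 and 58.5), so neither could be tested.

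Reln, the extracellular guide for migrating neurons, was measured by 1449465_at. In cortex it read 1319.3, 1401.4 and 1159.4 in knockout and 1170.8, 1182.2 and 1266.1 in wild type. The arrays overlapped, with the lowest value in knockout replicate 3 (log2 difference 0.10, interval -0.09 to 0.28, limma adjusted p = 0.643). Rest samples read 1713.5, 1521.8 and 1758.4 in knockout and 1873.9, 1427.7 and 2090 in wild type (-0.09, interval -0.38 to 0.19, adjusted p = 0.854). The second Reln probe set, 1458020_at, was blank on every array. The intervals exclude a log2 fall beyond 0.09 in cortex and beyond 0.38 in the rest table for this probe set, before any adjustment for multiple tests.

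Dab1, the adaptor that is phosphorylated when Reln binds its receptors, gave 5 probe sets that did not agree in direction in cortex. Probe set 1435577_at read 237.8, 262.0 and 258.9 in knockout against 307.6, 314.2 and 326.8 in wild type, without overlap (log2 difference -0.31, interval -0.51 to -0.10, limma adjusted p = 0.128). The brightest, 1435578_s_at, read 368.8, 404.9 and 333.5 in knockout against 450.7, 464.6 and 412.3 in wild type, also without overlap (-0.25, adjusted p = 0.234). The dim 1421100_a_at lay the other way, at 87.7, 66.4 and 106.5 in knockout against 65.7, 56.2 and 62.3 in wild type, with knockout replicate 2 just above wild-type replicate 1 (0.39, adjusted p = 0.277). The other 2 overlapped, at -0.12 and 0.07.

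For rest samples all 5 Dab1 probe sets overlapped, with log2 differences of -0.32 to -0.07 (limma adjusted p = 0.569 to 0.878). The brightest, 1435578_s_at, read 518, 492 and 419.7 in knockout and 471.7, 588.3 and 495.5 in wild type (-0.12, interval -0.37 to 0.14). Probe set 1421100_a_at, which was higher in knockout cortex, read 85.5, 83.2 and 91.5 in knockout and 101.4, 90.6 and 91.8 in wild type.

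Other genes of the same pathways were read from lists, given as genes tested, genes called and the median log2 difference over genes, beside all genes tested. Cortex here means the A chip unless the B chip is named. Of all 7275 genes tested on the A chip, 215 were called higher and 58 lower (830 higher and 660 lower at an unadjusted p under 0.05, median -0.01). Of 11101 in the rest table, 22 were called higher and 28 lower (799 higher and 898 lower unadjusted, median 0.01). A gene counted on a side if any of its probe sets passed. Summed levels add the brightest tested probe set of each gene, and leave out genes for which it is blank on any array of the table. Of 15 reelin signalling genes in cortex, limma called 0, with 4 higher and 3 lower at an unadjusted p under 0.05 (median -0.15), Dab1 being counted on both sides through different probe sets. The lowest p-values belonged to Itgb1, an integrin subunit (log2 difference 0.42, adjusted p = 0.0603), and Fyn, a kinase that acts on Dab1 (-0.27, adjusted p = 0.0914). Among rest samples 0 of 17 were called, with 1 higher and 3 lower unadjusted (median -0.07; Vldlr, a reelin receptor, is counted on both sides), and the lowest p-values were those of Rap1a (-0.35, adjusted p = 0.116) and Fyn (-0.36, adjusted p = 0.128).

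Of the Lis1 and dynein genes, limma called 0 of 15 in cortex (0 higher and 2 lower unadjusted, median -0.02) and 0 of 16 in the rest table (2 higher and 1 lower unadjusted, median 0.01). Pafah1b2, a subunit partner of Lis1 in the acetylhydrolase complex, had the lowest p in cortex (-0.19, adjusted p = 0.261), followed by Ywhae (-0.13, adjusted p = 0.303). For rest samples Bicd2, a dynein adaptor, had the lowest (-0.59, adjusted p = 0.236), followed by Pafah1b2 (0.21, adjusted p = 0.375).

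Of the tubulins, limma called 0 of 10 in cortex (0 higher and 1 lower unadjusted, median -0.05), where a dim probe set of Tubb4b (-0.69, adjusted p = 0.0648) and Tubb4a (-0.14, adjusted p = 0.358) had the lowest p-values. Of the 10 tested in rest samples, 1 fell: Tubb4a, a beta-tubulin abundant in oligodendrocytes, averaged 2782 ± 119 in knockout and 3787 ± 21.3 in wild type (SD, n = 3 each, log2 difference -0.44, limma adjusted p = 0.0181). Oligodendrocyte markers moved with it: 4 of 10 fell and none rose in the rest table (median -1.37), with summed levels of 5092 to 12931 in knockout and 19531 to 20545 in wild type. Their part in the Tubb4a value was not tested.

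The neuronal microtubule proteins, a list that holds Dcx, Dclk1, Mapt and Stmn2, had 3 of 21 genes called lower in cortex and none higher (0 higher and 10 lower unadjusted, median -0.13). Beside Dcx and Mapt it was Stmn4, another stathmin of neurons, at 1543 ± 45.0 in knockout and 2033 ± 27.0 in wild type (SD, n = 3 each, log2 difference -0.40, limma adjusted p = 0.00571). For rest samples Dcx was the only one of 24 called (2 higher and 5 lower unadjusted, median 0.00). Of 20 genes for migration kinases, adhesion and actin, 1 was called in cortex, lower in knockout (2 higher and 7 lower unadjusted, median -0.08). It was St8sia2, the enzyme that puts polysialic acid on Ncam1 in young neurons, at 382 ± 57.1 in knockout and 667 ± 35.3 in wild type (SD, n = 3 each, -0.79, limma adjusted p = 0.00294). None of 21 was called in the rest table (3 higher and 4 lower unadjusted, median 0.08), where Rnd2 (-0.40, adjusted p = 0.0613) and Marcks (-0.34, adjusted p = 0.0856) had the lowest p-values.

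**Figure D4:**
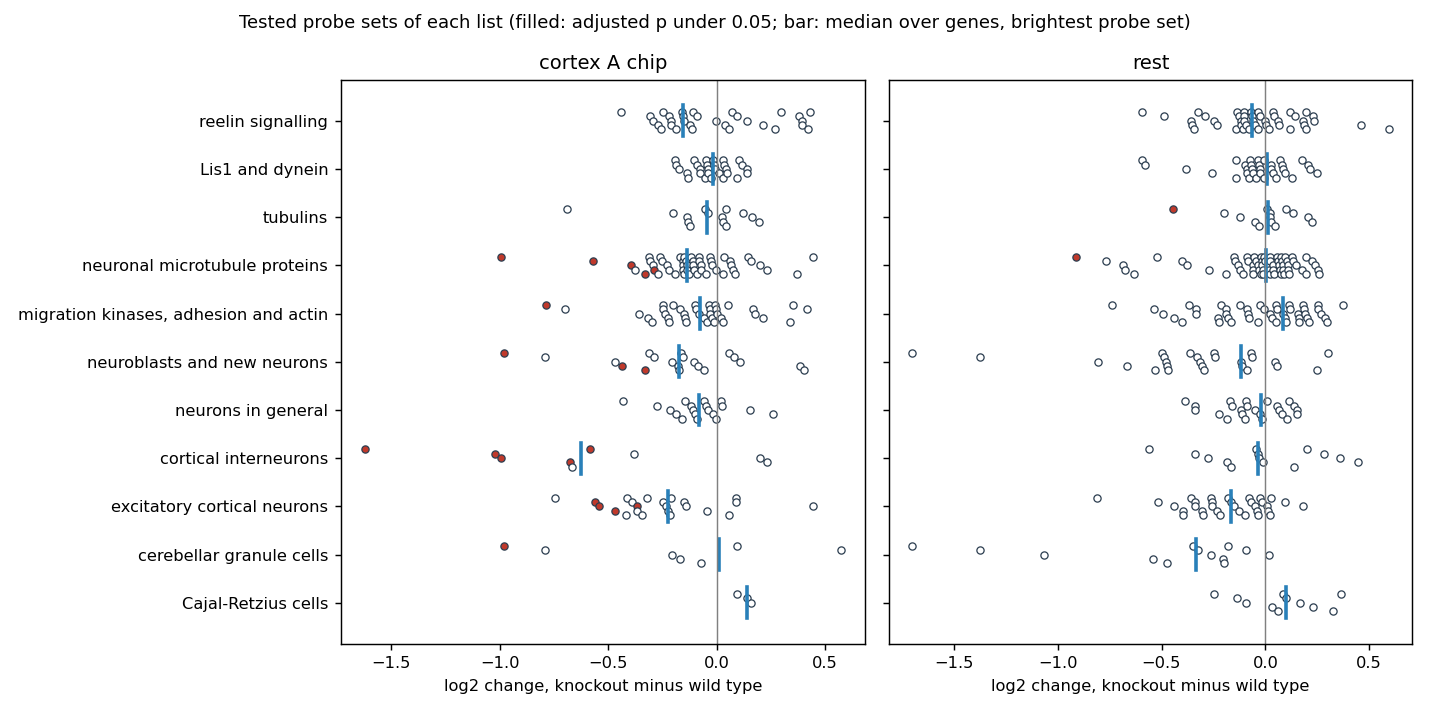
Each point is a tested probe set of a pathway or neuronal marker list, with the glial, microglial and vascular lists not drawn (x axis, log2 difference, knockout minus wild type; filled, called at an adjusted p under 0.05), and the bar is the median over genes, with the cortex A chip at left and the rest table at right. In cortex the called probe sets drawn lie left of 0 and are found in the lists that hold Dcx and Mapt, St8sia2, Cd24a, Neurod1, the interneuron genes and 3 excitatory neuron genes; among those drawn for the rest table only Tubb4a and Dcx are filled.

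Dcx is made by migrating and newly born neurons, so markers of those cells are given beside it. Of 10 neuroblast and new neuron genes in cortex, 2 were called lower and none higher (1 higher and 4 lower unadjusted, median -0.17). Cd24a, a surface protein of neuroblasts, fell by 0.44 and 0.33 on the log2 scale on 2 probe sets (limma adjusted p = 0.0229 and 0.026). Neurod1 was called on 1 probe set, at 131 ± 15.6 in knockout and 286 ± 116 in wild type (SD, n = 3 each, -0.98, adjusted p = 0.0367). Its brighter probe set was not called, at 185 ± 1.2 in knockout and 364 ± 200 in wild type (-0.79, adjusted p = 0.178). The wild-type arrays spread widely on both. The gene higher at an unadjusted p under 0.05 was Neurod6 (0.41, adjusted p = 0.294). The summed level of the list in cortex was 10996 to 11517 in knockout and 11939 to 12150 in wild type. Among rest samples 0 of 11 were called (0 higher and 4 lower unadjusted, median -0.12).

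Of 8 cortical interneuron genes, 4 were called lower in cortex and 0 higher (2 higher and 6 lower unadjusted, median -0.62). The 4 were Dlx1 (-1.62), Nxph1 (-1.02), Lhx6 (-0.99) and Gad1 (-0.68 and -0.58). Sst (0.23, limma adjusted p = 0.268) and Npy (0.20, adjusted p = 0.297) lay higher in knockout, without overlap. Summed levels over 7 of the 8, without Dlx1 and with Sst and Npy, were 2654 to 3186 in knockout and 3179 to 3411 in wild type. Among rest samples 0 of 11 were called (3 higher and 1 lower unadjusted, median -0.04). Of 9 excitatory cortical neuron genes, 3 were called lower in cortex and 0 higher (1 higher and 6 lower unadjusted, median -0.22). The 3 were Pou3f1 (-0.56), Bcl11a (-0.54 on 1 probe set with the other at 0.06) and Mef2c. Mef2c was called on its brightest probe set (-0.37) and on another (-0.47), and its remaining probe sets were not called. The gene higher at an unadjusted p under 0.05 was Fezf2 (0.45, limma adjusted p = 0.307). On the cortex B chip 0 of 7 were called (0 higher and 3 lower unadjusted, median -0.09). None of 9 was called in rest samples (0 higher and 2 lower unadjusted, median -0.16). Of 12 genes of neurons in general, limma called 0 in cortex (1 higher and 2 lower unadjusted, median -0.08) and 0 in the rest table (0 higher and 2 lower unadjusted, median -0.02). Of 4 tested on the cortex B chip it called 0 (2 higher and 0 lower unadjusted, median 0.14).

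The Reln sources were read too. The Cajal-Retzius and cerebellar granule cell lists hold Reln itself, so they partly repeat its value. Of 3 Cajal-Retzius genes on the cortex A chip and 9 in the rest table, 0 were called in either, with 0 at an unadjusted p under 0.05 (medians 0.14 and 0.10). The 3 were Reln, Calb2 and the dim Ebf3 (means of 43.7 in knockout cortex and 38.4 in wild-type cortex). On the cortex B chip 2 were tested and 0 called, with 1 higher and 0 lower unadjusted (median 0.54). Of the cerebellar granule cell genes, 1 of 4 fell in cortex (Neurod1 again) and 0 of 8 were called in the rest table (0 higher and 2 lower unadjusted, median -0.34). Summed levels in the rest table, over 6 of the 8, were 4247 to 5272 in knockout and 4546 to 9511 in wild type.

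Non-neuronal markers also moved in knockout cortex. Mural and meningeal genes rose in 8 of 9 (median 1.30). Summed levels over 7 of the 9 were 7980 to 9128 in knockout and 3316 to 3803 in wild type. Microglial genes rose in 7 of 8 (median 0.70), endothelial genes in 4 of 8 (median 0.45) and astrocyte genes in 4 of 10 (median 0.18), while oligodendrocyte genes fell in 4 of 8 (median -0.45). For rest samples mural and meningeal genes rose in 5 of 11 (median 0.78). On the cortex B chip the only list genes called were Tbx18, a mural and meningeal gene (2.23), and Gpr17, an oligodendrocyte gene (-1.63). In such bulk tissue fewer cells of a type and less RNA per cell cannot be told apart, and the part of these shifts in the values of Dcx and Mapt was not tested.

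The genes whose pattern lay closest to Dcx were sought over the 12 arrays of the cortex A chip and rest tables, with log2 values centred within each table, among 10062 probe sets with 1 gene listed on all 12. The highest Pearson r to 1418139_at belonged to Porcn (0.923), Cd24a (0.921 and, on another probe set, 0.916), Rbmx (0.918), Anp32a (0.912) and Gucy1a1 (0.911), and the second bright Dcx probe set stood at 0.912. Porcn and Rbmx lie on the X chromosome, as Dcx does, whereas Cd24a, Anp32a and Gucy1a1 lie on chromosomes 10, 9 and 3. In cortex Rbmx fell by 0.74 (limma adjusted p = 0.00492) and Gucy1a1 by 0.97 (adjusted p = 0.00199) on the log2 scale. The 12 arrays share the genotype difference and the sex pattern, so these coefficients are a description.

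The pattern of Reln lay closest to those of Scp2 (0.916), Gatad2a (0.895), a Dclk1 probe set, 1424271_at (0.883), Hmgb2 (0.879), Phc2 (0.874) and Nde1 (0.872), over the same 12 arrays and 10064 probe sets. None of these 6 was called in cortex or in the rest table, with cortex log2 differences of -0.01 to 0.25.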

How the data were processed

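Total RNA (TRIZOL, standard Affymetrix labelling, per the labels) was measured on 18 arrays, 3 per genotype in each of 3 tables. The authors deposited linear intensity values per probe set, made with MAS5, per the submitters' processing notes, which give no version or setting. Many cells are blank, and the labels do not say why. The number of arrays limits the precision.

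Within a table, arrays were equalised on their trimmed mean (2% off either end) over probe sets with no blank among the 6 arrays, then transformed as log2(signal + 16). Testing required a listed signal on 2 or more arrays per genotype (12065, 7838 and 21407 probe sets). All signals in the text are scaled ones. Knockout was compared with wild type table by table, using limma 3.58.1 (R 4.3.3) (eBayes with an intensity trend, no covariate), with Benjamini-Hochberg adjustment over all probe sets tested, and the difference between tables by an interaction. The fit within each table was also run on simulated data with planted differences and independent noise per array. That simulation held no sex pattern and no shared animals, so it cannot speak to either. Gene names come from the array annotation updated through RefSeq, and promoter windows and chromosomes from RefSeq (GRCm38.p6).

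The members and lists were chosen with earlier results of these data known. Every member probe set is accounted for. Array values are given for members called, not overlapping, or brightest of their gene in a table. Lists name called genes with the largest change, otherwise the 2 with the lowest p, and likeness names the 6 highest Pearson r. The table columns that belong to no sample numbered 0. Alternatives were other scalings, offsets of 1 and 64, 2 treatments of blank cells, other variance models, array weights, a replicate block, a sex-pattern term, an adjusted p under 0.1 and each array left out.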

Additional observations from a re-analysis of the deposited data

How the results depend on the processing

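Dcx 1418139_at and 1418141_at kept their cortex calls in 18 of 19 alternatives each and lost them with the sex-pattern term only. Among the 19, the adjusted p under 0.1 is the same fit at a looser threshold, so it could not lose a call. Of the cortex A chip members, 2 were called without a variance trend, 2 with the replicate block, 0 with the sex-pattern term and 2 to 3 with each array left out, against 4 in the reported fit. Apart from the sex-pattern fit, which also lost the Dcx calls, the lost calls were those of Mapt. With the replicate block Mapt had limma adjusted p-values of 0.0525 (1424718_at) and 0.0853 (1424719_a_at). With quantile normalization 3 members were called, and Mapt 1424719_a_at missed the threshold (adjusted p = 0.0835). For rest samples 0 members were called without a variance trend (Dcx 1418141_at, adjusted p = 0.125), 0 with the sex-pattern term and 0 to 1 with each array left out, against 1. On the B chip, and in the interaction, 0 members were called in every alternative, with each array left out included. Same-numbered knockout and wild-type arrays share no stated animal or batch, and their deviations correlated at 0.01, 0.02 and -0.01 for A chips, at 0.16, 0.07 and 0.14 for B chips, and at 0.02, 0.07 and 0.25 for rest arrays, so the numbers were not taken as pairs, and the block gave 1 call for rest samples, as reported. Directions were followed only for selected probe sets of Dcx, Dclk1, Mapt and Dab1, with none on the B chip. Among those followed they turned in 5 instances, none of them called. Dcx 1418140_at in cortex was 0.031 without knockout replicate 3 (-0.078 to 0.031 with each array left out). The Dcx 1418141_at difference between tables was -0.13 with the sex-pattern term, -0.088 without cortex knockout replicate 2 and -0.029 without rest knockout replicate 3 (-0.088 to 0.31 with each array left out). That of Mapt 1424719_a_at was -0.28 with the sex-pattern term, against 0.23 as reported. The cause was not tested, except that the sex-pattern fit rests on 1 knockout array. Over whole tables the calls ranged from 83 to 607 for A chips, from 9 to 66 for B chips and from 10 to 161 for rest samples, against 364, 22 and 67. Dim probe sets near the level where cells turn blank, such as Dcx 1418140_at and 1448974_at, limit what can be read from them.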
